A study of Mus musculus with 4 samples.

Results

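The genes examined encode 10 stress granule nucleating proteins: G3bp1, G3bp2, Tia1, Tial1, Caprin1, Fmr1, Fxr1, Fxr2, Ubap2l and Atxn2. The genes were taken by symbol, through their Ensembl identifiers in GENCODE M21, and make up 10 of the 55364 genes in the files. RNA sequencing was run on pachytene spermatocytes, germ cells in the prophase of the first meiotic division, which had been enriched from mouse testis in an elutriator and checked for purity by DAPI. There were 2 libraries of wild-type cells (WT) and 2 of DDX4 homozygous knock-in cells (KK), in which the gene altered is that of a germline RNA helicase of germ granules. The labels give no age, strain or knocked-in sequence and name no other allele or treatment that sets the genotypes apart. Per its title, the series asks what phase-separated germ granules do for RNA homeostasis in the germline. Nothing in the labels says that libraries of 1 genotype came from separate animals, so the p-values reflect only how far these particular samples spread, and that spread may be technical.

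Stress granules are cytoplasmic condensates of untranslated mRNA and RNA-binding proteins that form when translation initiation stalls, often after phosphorylation of eIF2alpha. G3BP proteins bind RNA and join into a network that seeds the condensate. Caprin1 and UBAP2L bind G3BP and promote assembly, while USP10 competes with Caprin1 for G3BP and limits it. TIA proteins bind U-rich RNA, the FMRP family binds polysomal mRNA, and ataxin-2 binds poly(A)-binding protein. Germ cells store many mRNAs untranslated, and their own condensate, the chromatoid body, holds DDX4.

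Several of these genes make proteins with optional stretches, and 6 optional coding segments are shown because the isoform values given further on turn on them. Each was read from GENCODE M21 transcripts (GRCm38), runs 5′ to 3′ on the gene's own strand, and has the optional segment in capitals between 15 flanking bases of the neighbouring exon sequence on each side.
Fxr1 exon A, 81 bases at chr3:34064974-34065054, plus strand: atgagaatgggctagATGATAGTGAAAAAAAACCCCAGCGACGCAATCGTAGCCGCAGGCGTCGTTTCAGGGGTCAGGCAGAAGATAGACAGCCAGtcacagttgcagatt
Fxr1 exon B, 92 bases at chr3:34068161-34068252, plus strand: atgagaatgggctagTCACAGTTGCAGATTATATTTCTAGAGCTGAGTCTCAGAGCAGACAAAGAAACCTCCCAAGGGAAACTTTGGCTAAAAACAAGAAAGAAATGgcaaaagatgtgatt
G3bp2 exon, 99 bases at chr5:92063337-92063435, minus strand: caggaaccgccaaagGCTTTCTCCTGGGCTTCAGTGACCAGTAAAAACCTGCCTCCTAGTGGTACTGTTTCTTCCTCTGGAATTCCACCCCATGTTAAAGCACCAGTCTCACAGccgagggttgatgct
Tia1 exon, 33 bases at chr6:86419101-86419133, plus strand: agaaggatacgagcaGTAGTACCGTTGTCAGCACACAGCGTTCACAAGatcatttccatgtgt
Tial1 exon extension, 51 bases at chr7:128448720-128448770, minus strand: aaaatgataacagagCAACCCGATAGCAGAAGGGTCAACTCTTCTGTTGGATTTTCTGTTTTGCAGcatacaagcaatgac
Fmr1 exon extension, 75 bases at chrX:68712231-68712305, plus strand: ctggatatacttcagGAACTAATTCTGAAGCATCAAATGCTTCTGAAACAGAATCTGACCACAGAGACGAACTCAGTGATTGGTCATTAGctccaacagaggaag
Fxr1 exon B is the one segment of the 6 whose length is not a multiple of 3, so leaving it out shifts the reading frame. Fxr1 exon A is best known from the muscle isoforms of Fxr1, and the Tia1, Tial1 and G3bp2 segments separate the long and short forms of those proteins.

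The total expected count was 17970207 to 19438570 per library, and 16571 genes passed the expression filter. In the check of the targeted gene, Ddx4 was at 264.96 and 272.92 TPM (a per-length share of all transcripts) in WT and at 54.44 and 52.49 TPM in KK, 5.05-fold lower (adjusted p = 6.8e-27). The pachytene markers Ldhc (9688.33, 9534.45, 9748.47 and 9459.20 TPM in WT 1, WT 2, KK 1 and KK 2) and Ybx2 (3453.55, 3444.34, 2993.14 and 3059.50 TPM) were abundant in all 4 libraries. Of 20 pachytene markers 1 was higher and 13 were lower in KK, with a summed level of 16900 CPM (counts scaled to a common library size) in both WT libraries and 15100 to 15300 in KK. Of 8 Leydig markers 7 were higher and the other did not pass, with a sum of 222 to 237 CPM in WT and 703 to 712 in KK. Of 11 spermatogonia markers 7 were higher and 1 lower (124 to 125 and 124 to 135 CPM). The lower one, Id4, held most of that sum, at a mean of 93.4 CPM in WT and 70.1 in KK. Of 14 round spermatid markers 8 were higher and 5 lower (4780 to 4820 and 4100 to 4200 CPM). Of 11 Sertoli markers 2 were higher and 5 lower (168 to 170 and 202 to 204 CPM). Ptgds, 1 of the 2 higher, went from a mean of 26.7 CPM in WT to 71.9 in KK, so the rise of the sum does not describe the list. Of 6 peritubular and endothelial markers 3 were higher (6.93 to 8.72 and 12.1 to 13.4 CPM), and of 5 macrophage markers 1 was higher (4.60 to 4.83 and 5.33 to 6.15 CPM). No marker of these lists was at 0 in all 4 libraries. The part of these markers in the results that follow was not tested, and in bulk RNA fewer cells of a type and less RNA per cell cannot be told apart.

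All 10 nucleating genes passed the expression filter. In KK 7 of them fell (G3bp1, G3bp2, Tia1, Tial1, Fxr1, Fxr2 and Atxn2), 2 rose (Ubap2l and Fmr1), and Caprin1 did not pass the test. Over all 16571 genes tested, 43.7% passed, 21.7% lower and 22.0% higher, so that 50.4% of the calls were higher, or 64.2% under library size scaling. Of the 9 nucleating genes with a mean of at least 10 CPM, 8 passed and 7 of these were lower, beside 57.6% passing and 36.9% lower over the 8378 genes at that level. The median log2 fold change was -0.33 for the 10 genes and 0.00 for all genes tested. The falls were modest: the fitted folds of the 7 genes lay between 1.07 and 1.47. The test was edgeR's quasi-likelihood test with Benjamini-Hochberg adjustment at 0.05, and CPM values are scaled by TMM factors.

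The levels of the 10 genes spanned a wide range. On the TPM scale, which divides by transcript length and so allows genes to be set against each other, the order in WT was Fxr1, Caprin1, Ubap2l, Fxr2, Tial1, G3bp2, Atxn2, G3bp1, Tia1 and Fmr1. Fxr1 stood above 97.4% of the tested genes in mean WT TPM, Caprin1 above 91.1%, G3bp1 above 62.4% and Fmr1 above 24.8%. Among neighbours in that order, Ubap2l and Fxr2 overlapped between libraries in WT, and every other neighbouring pair kept apart. In KK the order was the same except that Atxn2 stood above G3bp2, and those 2 overlapped.

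**Figure D1:**
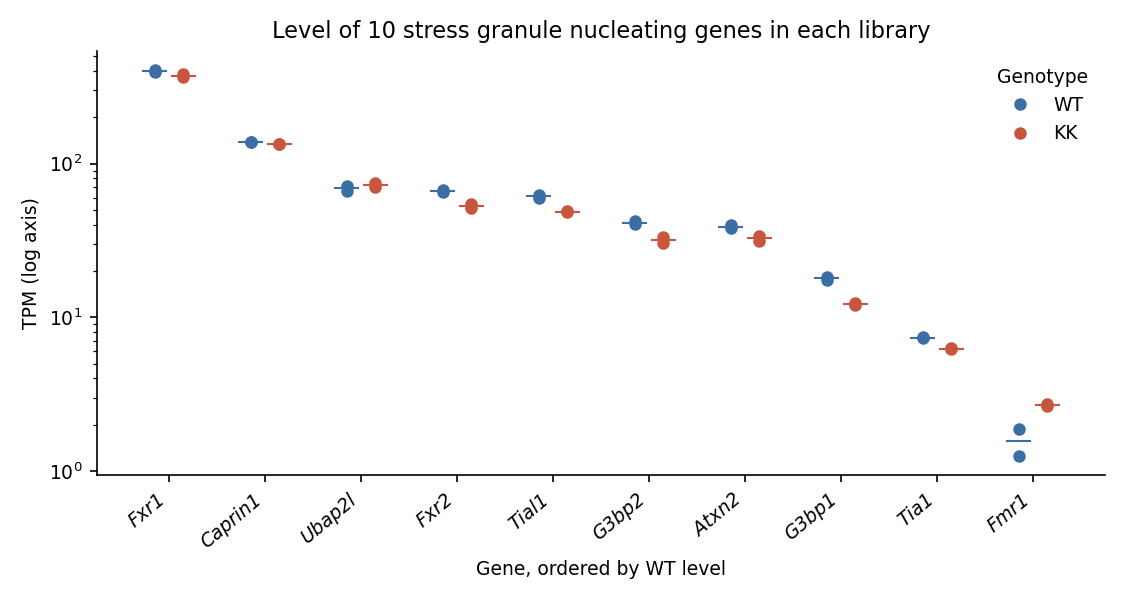
TPM of each gene on a log axis, with 1 point per library and a line at the mean of the 2 libraries of a genotype, ordered by WT level. Fxr1 sits near 400 TPM and Fmr1 below 3 TPM. Points of the genotypes that keep apart are not a test: those of Caprin1 do so, and it did not pass.

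G3bp1 and G3bp2 encode the RNA-binding hubs of the stress granule network, and both fell. G3bp1 (ENSMUSG00000018583, chr11:55469685-55504838) was at 18.18 and 17.57 TPM in WT and at 12.38 and 12.04 TPM in KK. Both KK libraries were below both WT libraries. G3bp1 moved from 89.5 ± 2.26 to 60.7 ± 0.458 CPM (SD, n = 2), a log2 fold change of -0.56 ± 0.06 (SE), or 1.47-fold lower (adjusted p = 3.3e-09). G3bp2 (ENSMUSG00000029405, chr5:92052146-92083719) was at 40.60 and 42.07 TPM in WT and at 30.63 and 33.03 TPM in KK. It, too, did not overlap between genotypes, and moved from 112 ± 1.33 to 88.1 ± 3.79 CPM (SD, n = 2), 1.27-fold lower (log2 fold change -0.35 ± 0.05, adjusted p = 1.2e-06). The 2 genes together gave 58.8 and 59.6 TPM in WT and 43.0 and 45.1 TPM in KK. G3bp1 made up 30.9% and 29.5% of that sum in WT and 28.8% and 26.7% in KK, so G3bp2 was the larger G3BP transcript pool in all 4 libraries.

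G3bp1 has a near-identical processed pseudogene, Gm5913 on chromosome 8, which aligns to it over 1399 bases at 98.0% identity, so the counting could split reads between them. Gm5913 had 28 and 38 counts in WT and 113 and 118 counts in KK, against a fall in G3bp1. Its log2 fold change was 1.72 ± 0.24 (adjusted p = 7.9e-07). With the counts of Gm5913 added to G3bp1, an alternative chosen after the data had been seen, G3bp1 was 1.37-fold lower (log2 fold change -0.45, adjusted p = 8.1e-08). For G3bp2, the opposite-strand lincRNA model Gm26582 shares 1935 bases at 99.9% identity, and it was not analysed here.

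Caprin1 and Ubap2l encode partners of G3BP that promote granule assembly, and neither fell. Caprin1 (ENSMUSG00000027184, chr2:103762941-103797649) was at 138.10 and 137.32 TPM in WT and at 133.86 and 133.48 TPM in KK. The KK libraries were slightly lower, but the log2 fold change of -0.04 ± 0.04 did not pass (adjusted p = 0.33), and it was 0.04 under library size scaling and under a length trend offset. Ubap2l (ENSMUSG00000042520, chr3:90000140-90052628) was at 65.86 and 71.94 TPM in WT and at 70.68 and 74.29 TPM in KK. The genotypes overlapped in TPM, with KK 1 below WT 2, but not in CPM (152 ± 5.41 and 166 ± 6.89, SD, n = 2). Ubap2l was 1.09-fold higher (log2 fold change 0.12 ± 0.04, adjusted p = 0.022). That call was lost without WT replicate 1 (adjusted p = 0.33), without KK replicate 2 (adjusted p = 0.24), with DESeq2 (adjusted p = 0.20) and with an offset for effective length (adjusted p = 0.49). It was also lost without the expression filter (adjusted p = 0.055) and with limma on log2(TPM + 1) or log2(TPM + 0.1) (adjusted p = 0.46 in each).

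Within Ubap2l, the retained intron isoforms were higher in KK. They summed to 5.63 and 6.25 TPM in WT and to 9.41 and 8.71 TPM in KK, with no overlap, while the protein-coding isoforms were at 60.21, 65.68, 61.27 and 65.57 TPM and overlapped. The retained intron isoform Ubap2l-205 held 6.85% and 7.15% of the gene's transcripts in WT and 11.89% and 9.45% in KK. Over all genes, retained intron isoforms held 3.44% and 3.46% of the TPM in WT and 3.35% and 3.36% in KK. How often such isoforms keep the genotypes apart over all genes was not counted. The kit does not mark strand, and the opposite-strand genes 4933434E20Rik (897.9, 892.1, 787.7 and 795.3 counts) and Gm19710 (33, 30, 19 and 18 counts) overlap Ubap2l, so their reads cannot be told apart from its own.

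Tia1 and Tial1 encode TIA-1 and TIAR, prion-like RNA-binding proteins that bind U-rich RNA and also regulate splicing, and both fell. TIAR is known to be needed for primordial germ cells. Tial1 (ENSMUSG00000030846, chr7:128439777-128461717) was at 62.77 and 59.86 TPM in WT and at 48.10 and 49.12 TPM in KK. Both KK libraries were lower, and the CPM went from 75.9 ± 0.874 to 59.4 ± 0.71 (SD, n = 2), 1.28-fold lower (log2 fold change -0.35 ± 0.06, adjusted p = 2.1e-05). Tia1 (ENSMUSG00000071337, chr6:86404219-86433405) was at 7.34 and 7.40 TPM in WT and at 6.18 and 6.32 TPM in KK, again without overlap. In CPM it went from 17.8 ± 0.969 to 12.1 ± 0.393 (SD, n = 2), 1.47-fold lower (log2 fold change -0.56 ± 0.11, adjusted p = 9.5e-05).

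The fall of Tia1 was smaller per length than in counts. Its effective length, the mean over its isoforms weighted by their use, was 2974.39 and 3193.56 bases in WT and 2433.02 and 2499.59 bases in KK. With an offset for effective length Tia1 was 1.19-fold lower and did not pass (log2 fold change -0.25, adjusted p = 0.15), and with limma on log2(TPM + 1) it was -0.21 (adjusted p = 0.31), or -0.23 with a pseudocount of 0.1 (adjusted p = 0.29). The protein-coding isoforms of Tia1 were at 6.10 and 5.32 TPM in WT and at 4.16 and 2.52 TPM in KK, values that depend on the isoform assignment described with the Tia1 segment. Tial1 was the larger TIA pool throughout: Tia1 made up 10.5% and 11.0% of the summed TPM of both genes in WT and 11.4% in each KK library.

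Among the Tial1 isoforms, the nonsense-mediated decay isoform Tial1-204 held 13.08% and 16.17% of the gene's transcripts in WT and 7.43% and 9.38% in KK. Another of that class, Tial1-206, went the other way, from 3.35% and 3.01% in WT to 7.2% and 4.8% in KK. The class as a whole held 23.7% and 19.2% in WT and 17.1% and 20.2% in KK, which overlapped. The retained intron isoform Tial1-208 was at 1.24% and 1.39% in WT and at 2.81% and 2.79% in KK. The shares of Tial1-204 and Tial1-208 kept the genotypes apart in opposite directions, while the leading isoform Tial1-201 overlapped (57.20%, 64.53%, 61.93% and 64.40%). Such a gap is common here: leading isoform shares kept the genotypes apart in 39.0% of 9596 genes with several isoforms. For isoforms other than the leading one, the share over all genes was not counted. The optional Tial1 segment printed above was in 5.7% and 4.6% of the TPM of isoforms that code on both sides of it in WT and in 6.0% and 8.4% in KK. For the Tia1 segment those shares were 43.4% and 46.7% in WT and 32.5% and 38.7% in KK, on 152.4, 189.9, 89.0 and 97.7 counts assigned to isoforms with it. The isoform behind them differed between libraries: the protein-coding Tia1-202 was at 2.65 and 1.70 TPM in WT and at 1.35 and 0 TPM in KK, and the nonsense-mediated decay isoform Tia1-205 at 0 and 1.47 TPM in WT and at 0 and 1.69 TPM in KK. WT 1 and KK 1 thus rested on Tia1-202 alone and KK 2 on Tia1-205 alone, so the assignment between these isoforms is unsteady.

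Fmr1, Fxr1 and Fxr2 encode the FMRP family of polysome-bound RNA-binding proteins, whose loss in the case of FMRP underlies fragile X syndrome. Their directions differed: Fxr1 and Fxr2 fell and Fmr1 rose. Fxr1, the paralogue known to be needed in mouse male germ cells for the translation of stored mRNAs, was the highest of the 10 genes (ENSMUSG00000027680, chr3:34019943-34070322). It was at 391.62 and 405.57 TPM in WT and at 380.26 and 364.14 TPM in KK. Both KK libraries were below both WT libraries, by a small margin, and the CPM went from 594 ± 13.7 to 554 ± 18.1 (SD, n = 2), 1.07-fold lower (log2 fold change -0.10 ± 0.04, adjusted p = 0.025). The call was lost without WT replicate 2 (adjusted p = 0.17), without KK replicate 2 (adjusted p = 0.084), under library size scaling (log2 fold change -0.02, adjusted p = 0.77) and with TMM factors from autosomal genes (adjusted p = 0.054). It was also lost with an effective length offset (adjusted p = 0.067) and with limma at either pseudocount (adjusted p = 0.14).

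Fxr2 (ENSMUSG00000018765, chr11:69632990-69653297) was at 67.20 and 65.18 TPM in WT and at 54.43 and 51.19 TPM in KK. Both KK libraries were lower, and the CPM went from 125 ± 0.442 to 101 ± 0.794 (SD, n = 2), 1.25-fold lower (log2 fold change -0.32 ± 0.05, adjusted p = 1.2e-06). Fmr1 (ENSMUSG00000000838, chrX:68678541-68717963) was the lowest of the 10 genes at 1.88 and 1.25 TPM in WT and 2.73 and 2.63 TPM in KK, from 100, 71, 150 and 134 counts. Both KK libraries were higher, and the WT libraries differed from each other more than the KK libraries did. Fmr1 went from 4.74 ± 1.33 to 7.38 ± 0.126 CPM (SD, n = 2), 1.56-fold higher (log2 fold change 0.64 ± 0.19, adjusted p = 0.0064). The size depended on 1 library: without WT replicate 2 the log2 fold change was 0.37 (adjusted p = 0.16), and without WT replicate 1 it was 0.95. DESeq2 gave 0.63 with an adjusted p of 0.11, and limma on log2(TPM + 1) and log2(TPM + 0.1) gave 0.53 and 0.77 with adjusted p of 0.097 and 0.12.

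Fmr1 is X-linked, and in pachytene spermatocytes the sex chromosomes are known to be transcriptionally silenced. Of 568 X-linked genes tested, 327 were higher in KK (57.6%) and 6 were lower, at a median log2 fold change of 0.89, so the value of Fmr1 lay below that median. FMRP is also known from spermatogonia, and the 11 spermatogonia markers had a median log2 fold change of 1.06. The part of either in the rise of Fmr1 was not tested. Fmr1 had the largest absolute log2 fold change of the 10 genes as reported, but not without WT replicate 2 (0.37, against -0.59 for G3bp1 and -0.51 for Tia1). The genes whose centred log2 CPM was most like it over the 4 libraries, among 3445 of similar level, were 4930572K03Rik (distance 0.0854), Stoml2 (0.0874) and Slc39a1 (0.108).

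Fxr1 carried most of the family's RNA. The 3 genes summed to 460.7 and 472.0 TPM in WT and 437.4 and 418.0 TPM in KK, of which Fxr1 made up 85.0%, 85.9%, 86.9% and 87.1%. The Fxr2 share was 14.6% and 13.8% in WT and 12.4% and 12.2% in KK, and the Fmr1 share was 0.408% and 0.265% in WT and 0.624% and 0.629% in KK. All 3 shares kept the genotypes apart, but as parts of the same sum they do not move independently. How often shares within other gene families do so was not counted.

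The optional segments of Fxr1 were used at close rates in both genotypes, though without overlap. Exon A, in Fxr1-201 alone, was in 21.6% and 20.9% of the TPM of isoforms coding on both sides of it in WT and in 20.1% and 18.9% in KK. Exon B was in 89.7% and 91.3% in WT and in 92.3% and 91.6% in KK. The leading isoform Fxr1-204, with exon B and without exon A, held 67.67% and 70.02% of the gene's transcripts in WT and 71.90% and 72.33% in KK. In Fmr1 the contrast was larger: the printed exon extension was in 48.9% and 42.9% of such TPM in WT and in 88.9% and 80.2% in KK, on 50.3, 31.9, 132.8 and 104.5 counts assigned to isoforms with it. At these counts the assignment of reads to isoforms is an estimate of low depth: Fmr1-202, without the extension, was at 0.96 and 0.38 TPM in WT and at 0 and 0.45 TPM in KK.

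**Figure D2:**
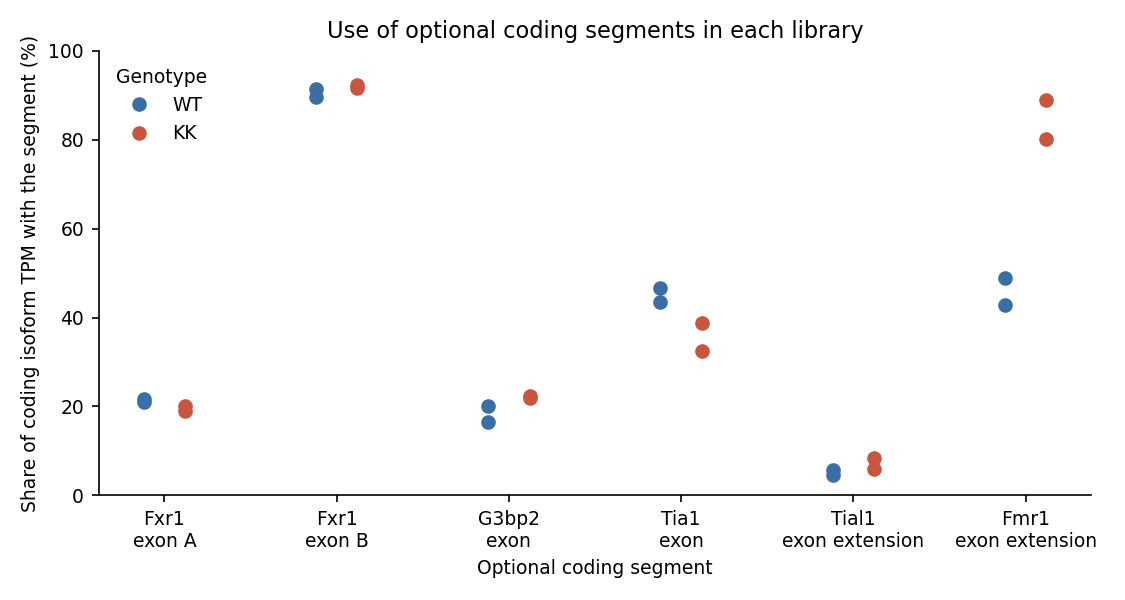
Share of the TPM of isoforms coding on both sides of a segment that includes it, in percent, with 1 point per library and genotype in colour, for the 6 segments. Fxr1 exon B lies near 90% in every library and Fxr1 exon A near 20%, while the Fmr1 extension lies at 42.9% to 48.9% in WT and at 80.2% to 88.9% in KK.

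Over the leading isoforms, 4 of the 10 genes (Atxn2, Fmr1, Fxr1 and Tia1) had shares that did not overlap between genotypes, beside 39.0% of 9596 genes with 2 or more isoforms and a mean of at least 50 counts, so the count was near the background. G3bp1 had essentially 1 isoform, G3bp1-201, at 98.14% to 100%, and Caprin1-202 held 81.75% to 84.00%. The leading G3bp2-201 varied most between libraries of 1 genotype, at 58.17% and 30.42% in WT and 32.34% and 47.33% in KK. The G3bp2 segment printed above was in isoforms with 6.60 and 7.95 TPM in WT and 6.87 and 7.19 TPM in KK, which overlapped. Isoforms coding on both sides of it without it were at 33.29 and 31.86 TPM in WT and at 23.76 and 25.84 TPM in KK, lower in both KK libraries.

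Atxn2 encodes ataxin-2, which binds poly(A)-binding protein and whose human form carries the polyglutamine tract that is expanded in spinocerebellar ataxia. Atxn2 (ENSMUSG00000042605, chr5:121711337-121816493) was at 38.03 and 39.59 TPM in WT and at 31.55 and 33.90 TPM in KK, with no overlap. It went from 74.5 ± 4.72 to 59.2 ± 5.11 CPM (SD, n = 2), 1.26-fold lower (log2 fold change -0.33 ± 0.07, adjusted p = 0.00018). The call was lost with limma on log2(TPM + 1) (log2 fold change -0.24, adjusted p = 0.069) and log2(TPM + 0.1) (-0.25, adjusted p = 0.07). The opposite-strand gene Sh2b3 (5271, 5534, 5438 and 5163 counts) overlaps Atxn2, and without strand their reads in the overlap cannot be told apart. Atxn2-201 held 41.62% and 46.85% of its transcripts in WT and 35.74% and 40.46% in KK.

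Summed over all 10 genes, the TPM was 831.6 and 847.8 in WT and 770.8 and 760.1 in KK. The libraries stood in the same order by this sum and by Fxr1, the largest term in each. Fxr1 made up 47.1% and 47.8% of the sum in WT and 49.3% and 47.9% in KK, so its share did not fall with the sum.

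Promoters, from 250 bases before to 50 after a RefSeq start (GRCm38.p6), were searched on both strands for short motifs, since 7 of these genes fell together. The 10 genes had 16 such windows, and the 14 whose start lay within 1 kb of the annotated 5′ end of the gene were used, which hold all 10 genes. The run GCATGCGC, part of the site of NRF1, was in windows of 2 of the 10 genes, Tia1 and Fmr1, and in 2.71% of 32851 promoters. Both windows are shown with the run in capitals and 10 bases on each side, on the strand of the gene. The run starts 91 bases before the RefSeq start in Fmr1 and 28 bases after it in Tia1.
Tia1 promoter, chr6:86404237-86404264, plus strand: ctggctgtgcGCATGCGCggcacgggtc
Fmr1 promoter, chrX:68678440-68678467, plus strand: ccaggagggcGCATGCGCgtgctccact
Tia1 fell and Fmr1 rose, and any part of the run in either was not tested. The E-box CACGTG was in 3 of the 10 genes (7.15% of all promoters), the GC box GGGCGG in 9 (35.7%), CCAAT in 2 (37.4%), TATAAA in 1 (13.6%) and TGACGTCA in 0 (1.79%). A gene with several windows counts once, while the shares are over single windows. The shares also carry no 1 kb limit, so the counts and shares are not on the same footing. Over all 16 windows of the 10 genes, GCATGCGC was in 3 genes, with G3bp2 added. Over the same windows CACGTG was in 4 genes and TATAAA in 2. A match describes letters in this window and is not a bound site.

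Other stress granule genes were mostly lower too. Of 48 partners, proteins that bind the nucleating proteins or reside in the granule, 29 were lower and 7 higher (median log2 fold change -0.23), beside 21.7% lower and 22.0% higher over all genes. Of the 38 partners with a mean of at least 10 CPM, 31 passed and 28 were lower, beside 57.6% passing and 36.9% lower over genes at that level. Among the 45 autosomal ones 29 were lower and 5 higher. The largest falls were in Larp4, a La-related poly(A)-binding protein (-0.66, 1.58-fold lower, adjusted p = 4.8e-08), and Prrc2a, a large disordered RNA-binding protein (-0.61, adjusted p = 1.1e-13). Taf15, a FET-family protein (-0.59), and Nufip2, an FMRP-interacting protein (-0.55), also fell. Prrc2a was at 292.86 and 309.98 TPM in WT and at 181.82 and 182.84 TPM in KK, well apart. The largest rises were in Zfp36, a decay factor of AU-rich mRNA (log2 fold change 1.10, adjusted p = 4.8e-06), and the X-linked helicase gene Ddx3x (0.94). Stau1, which encodes a double-stranded RNA-binding protein (0.53), and Lsm14a, of granules and P-bodies (0.51), rose as well. Stau1 was at 45.26 and 47.08 TPM in WT and at 67.23 and 68.01 TPM in KK.

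Paralogues and regulators of the 10 genes, chosen after their values had been seen, give a closer comparison. Atxn2l, the paralogue of Atxn2, was at 332.91 and 346.20 TPM in WT and 237.44 and 241.40 TPM in KK, 1.44-fold lower (adjusted p = 2e-12), and so was far more abundant than Atxn2. Ubap2, the paralogue of Ubap2l, was at 105.78 and 115.33 TPM in WT and 79.49 and 83.23 TPM in KK, 1.31-fold lower (adjusted p = 1.1e-09), opposite to Ubap2l. Caprin2 was at 5.72, 6.80, 6.15 and 4.82 TPM, overlapping between genotypes (adjusted p = 0.97). Usp10, the G3BP partner that limits assembly, was at 9.48 and 9.31 TPM in WT and 5.96 and 7.17 TPM in KK, 1.35-fold lower (adjusted p = 0.0011). Pabpc1, the poly(A)-binding protein to which ataxin-2 binds, was 1.27-fold lower (adjusted p = 5.8e-09). D1Pas1, the autosomal testis homologue of Ddx3x, was 1.30-fold lower (adjusted p = 1.9e-09), against the rise of Ddx3x, and it was much the more abundant, at 107.56 to 142.93 TPM against 1.11 to 2.36 TPM.

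Of 10 genes for granule clearance, 2 rose and 4 fell (median log2 fold change -0.02). Of the 8 with a mean of at least 10 CPM, 5 passed, beside 57.6% over genes at that level, so the count was near the background. The X-linked deacetylase gene Hdac6 (0.74, adjusted p = 0.00043) and the kinase gene Dyrk3 (0.14, adjusted p = 0.0033) rose, while Becn1 (-0.39), Nploc4 (-0.35), Vcp (-0.30) and Ulk2 (-0.23) fell. VCP, with its cofactor NPLOC4, extracts ubiquitinated proteins, and Becn1 and Ulk2 act in autophagy. Of 12 genes for eIF2alpha phosphorylation and its reversal, 1 passed (8.33%, beside 43.7% over all genes), and the median was -0.08. Of the 8 with a mean of at least 10 CPM, 1 passed, beside 57.6% over genes at that level. The gene that passed was Eif2b4 (-0.15, adjusted p = 0.0053), a subunit of the exchange factor that phosphorylated eIF2alpha inhibits. Eif2s1, which encodes eIF2alpha itself, had a log2 fold change of -0.09 (adjusted p = 0.062). Of 7 FMRP partners 4 fell and the other 3 did not pass, with a median of -0.17: Nufip2, Ranbp9 (-0.38), Tdrd3 (-0.20) and Top3b (-0.17). Over the whole list 57.1% passed, beside 43.7% over all genes. Of the 5 partners with a mean of at least 10 CPM, 4 passed, all 4 lower. Over all genes at that level 57.6% passed and 36.9% were lower, and a list of 5 genes is short.

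**Figure D3:**
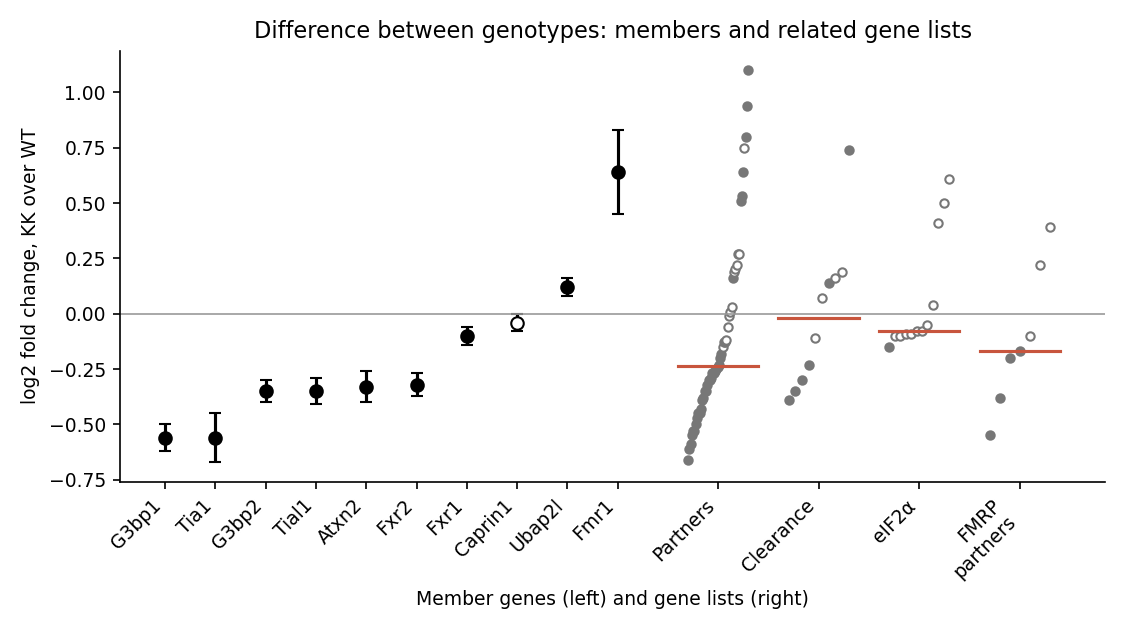
Log2 fold change of KK over WT for the 10 nucleating genes (black, with SE bars) and for each gene of the 4 related lists (grey), with filled points past the adjusted threshold, open points not, and red lines at list medians. The nucleating genes run from -0.56 to 0.64, and 29 of the 48 partners are filled points below 0.

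**Figure D4:**
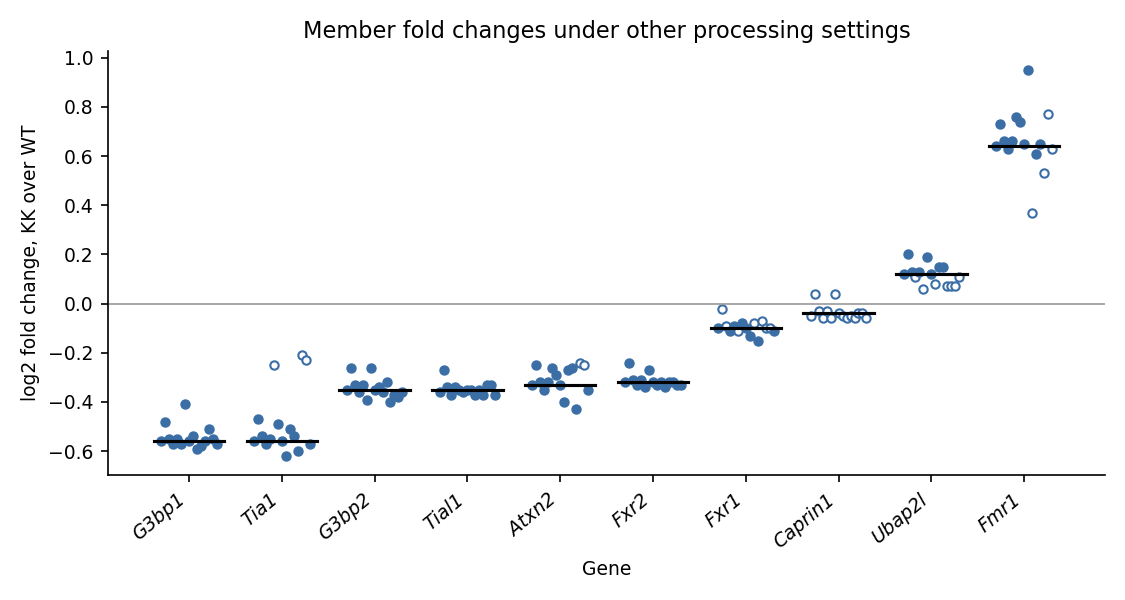
Log2 fold change of each nucleating gene as reported (black line) and under 15 other processing settings (points, filled where the adjusted p was under 0.05). G3bp1, G3bp2, Tial1 and Fxr2 are filled under all 15, and Fxr1, Caprin1 and Ubap2l lie close to 0.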

How the data were processed

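Total RNA of 4 libraries of pachytene spermatocytes was sequenced. Bowtie, mm10 and GRCm38 are named in the submitters' processing notes, while the quantifier is not given in the sources used here. The deposited tables hold, per the file headers, an expected count and a TPM for each gene and isoform, and the percent of a gene's transcripts that each isoform holds. Expected counts are estimates and were rounded to whole numbers. TPM values deposited by the authors are divided by effective length and shown as given. Percent values were used as deposited.

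Gene symbols came from GENCODE M21, with 55104 of 55364 identifiers found. Genotypes were compared with edgeR 4.0.16 in R 4.3.3 (TMM, default filter, quasi-likelihood, Benjamini-Hochberg threshold 0.05 over 16571 genes), tested on simulated data. limma 3.58.1, DESeq2 1.42.0, other scalings, filters, length offsets and left-out libraries were alternatives. Isoforms were described without a test. The named genes were the 10 members, Ddx4, up to 4 risers and 4 fallers of each related list whose mean reached 5 CPM and whose genotypes did not overlap, up to 2 genes of each marker list, and the 3 genes most like the member with the largest change. Not every gene the rule took is reported here. The paralogues and regulators compared above, Eif2s1, and genes that overlap a member or resemble it in sequence were named outside the rule. The members and lists were chosen with earlier results of these data known. The coefficient of variation that edgeR terms biological was 4.29%, though libraries of 1 genotype may not come from separate animals. Replicate numbers did not pair the samples.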

Additional observations from a re-analysis of the deposited data

How the results depend on the processing

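Of the 10 nucleating genes 9 passed as reported. The count was 4 with limma on log2(TPM + 1) and 4 on log2(TPM + 0.1), 6 with an effective length offset, 7 with DESeq2, 8 or 9 under the other scalings and filters, and 7 to 9 with 1 library left out. Over all genes 7237 passed, against 4662 with the effective length offset, 3826 and 3758 with limma at pseudocounts of 1 and 0.1, 4553 with DESeq2, and 5925 to 6552 with 1 library left out. Of the partners 36 passed, against 26 with the effective length offset, 31 with DESeq2, and 21 and 22 with limma at pseudocounts of 1 and 0.1. Library size scaling turned the all-gene calls from near balance to 64.2% higher against 50.4%. The log2 fold change of Caprin1, not past the test, changed sign to 0.04 under library size scaling and 0.04 under the length trend offset. G3bp1, G3bp2, Tial1 and Fxr2 kept their calls under all 15 alternatives, with adjusted p up to 0.024. Atxn2 lost its call under 2 of the 15, Tia1 under 3, Fmr1 under 4, and Fxr1 and Ubap2l under 7 each. The cause was not tested. The library numbers were shared between genotypes, but same-numbered libraries did not deviate together (r = -0.06 across 16571 genes, which are not independent), and a replicate block gave 7309 calls over all genes and 9 of the 10. With 2 libraries a genotype, precision rests on few samples, and low isoform counts limit the Fmr1 and Tia1 shares most.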
